A study of Oryza sativa with 12 samples.

Results

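Embryo-only genes of the developing rice seed are described here: 200 genes of 37878 in the deposited table. Each had 50 or more read counts in all 3 embryo libraries and 0 counts in all 9 libraries of aleurone, endosperm and pericarp. Of the 537 genes without a symbol that met these conditions, the 200 with the highest mean embryo level were kept. Levels are CPM, the counts of a gene per 1000000 counts of its library, and are not corrected for gene length. The members were thus chosen by their counts in these same libraries, and their embryo levels and their zeros elsewhere are a description, not a test.

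The study counted transcripts in 4 tissues of Oryza sativa seed, with 3 libraries each, called biological replicates by the study. The embryo is the young plant, the aleurone is the oily cell layer around the starchy endosperm, the endosperm is the starch store and the pericarp is the maternal fruit wall. All plants were field grown and untreated, and 10 ng of total RNA entered each library. The sources used here call the seed developing but give neither the cultivar nor the days after flowering, and nothing says whether the 4 tissues were taken from shared seeds, so p-values measure the spread between these libraries alone.

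The embryo grows by cell division and lays down a shoot and a root meristem, while the endosperm fills with starch and protein and the aleurone and embryo store oil. Genes for division, patterning and organ growth thus act in the embryo, but not only there. B-type cyclins drive entry into mitosis, homeobox factors of the WOX family act in meristems, and GRAS factors such as SHORT-ROOT act in root patterning.

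Embryo libraries held 14205388 to 18169845 counts, aleurone libraries 5689112 to 16005961, endosperm libraries 6367350 to 24412371 and pericarp libraries 2879282 to 6301388. Pericarp thus had the lowest range of depth, but aleurone 2, with 5689112 counts, was shallower than pericarp 1, with 6301388. Embryo genes were missed least in aleurone 1. Of the 11559 genes with 50 or more counts in every embryo library, 15.3% were at 0 in aleurone 1, 25.5% in aleurone 3, 46.1% in aleurone 2, 33.0% to 54.0% in endosperm libraries and 60.5% to 67.3% in pericarp libraries. The tissue labels were read against marker genes. OSH15, a KNOX meristem gene, had 35.9 ± 8.57 CPM in embryo, 0 in aleurone and endosperm and 32.1 ± 55.5 in pericarp (SD, n = 3). OSH71, also taken for embryo, had 44.1 ± 19.3 CPM in embryo, 15.7 ± 15.8 in aleurone and 0 in endosperm and pericarp. MCM3 had 278 ± 35.6 CPM in embryo and 81.5 ± 141 in pericarp. It had 0.0208 ± 0.0361 CPM in aleurone and 2.08 ± 2.12 in endosperm (SD, n = 3). WOX4 and CYCB2-1, also taken for embryo, had 0 counts in the other tissues and are given below. WAXY, which makes amylose, stood at 10.0 ± 13.3 CPM in embryo and 28432 ± 9264 in endosperm, with 1826 ± 879 in aleurone and 1828 ± 1176 in pericarp. Markers taken for aleurone did not single it out. The sucrose transporter genes SUT1 and SWEET11 were at 0 in embryo, with 597 ± 435 and 308 ± 151 CPM in aleurone and 440 ± 229 and 691 ± 229 in pericarp. The lipid transfer gene LTP had 27.1 ± 25.6 CPM in embryo, 667 ± 167 in aleurone and 976 ± 400 in pericarp, and the oil body gene OLE18 had 2284 ± 641, 2114 ± 582 and 2644 ± 943 in that order. Of the flavonoid genes taken for pericarp, CHS1 had 26.0 ± 25.3 CPM in embryo, 0 in aleurone and 24.8 ± 42.9 in pericarp. CHI had 154 ± 40.8 CPM in embryo, 103 ± 33.0 in aleurone and 1296 ± 1766 in pericarp (SD, n = 3). In endosperm, SUT1 had 2.22 ± 2.60 CPM, SWEET11 1.10 ± 1.78, LTP 26.6 ± 15.9 and OLE18 91.8 ± 63.7 (SD, n = 3). CHS1 had 0.0524 ± 0.0907 CPM there and CHI 8.53 ± 14.8. By their means, the markers taken for aleurone thus told aleurone from endosperm but not from pericarp. CHS1 and CHI were higher on average in pericarp than in aleurone, with an SD above the mean in pericarp. By their means OSH15 and CHS1 did not tell embryo from pericarp, while OSH71 was at 0 in pericarp. The pericarp means of OSH15, CHS1 and MCM3 each came from a lone library, as the size of their SDs shows, and are not a trait of all pericarp libraries. The part of mixed tissue in the members' values was not tested.

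Members were moderately expressed embryo genes rather than its most abundant ones. Their mean embryo levels ran from 19.3 to 166 CPM with a median of 31.4, and 6 members were above 100 CPM, 39 between 50 and 100, 144 between 20 and 50 and 11 below 20. By mean level the highest member stood at rank 1080 among all genes in embryo and the lowest at rank 8617. Together the 200 held 0.809% ± 0.147 of the embryo counts (SD, n = 3), from 130333 counts in embryo 2, 103671 in embryo 3 and 154378 in embryo 4. The 10 highest members took 14.1% of the summed member level, so no small group carried the set. No member has a symbol, a gene ontology term or a described product in the table, and the reference table matched 0 of the 37466 identifiers without a symbol, so no function is given to any member.

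**Figure D1:**
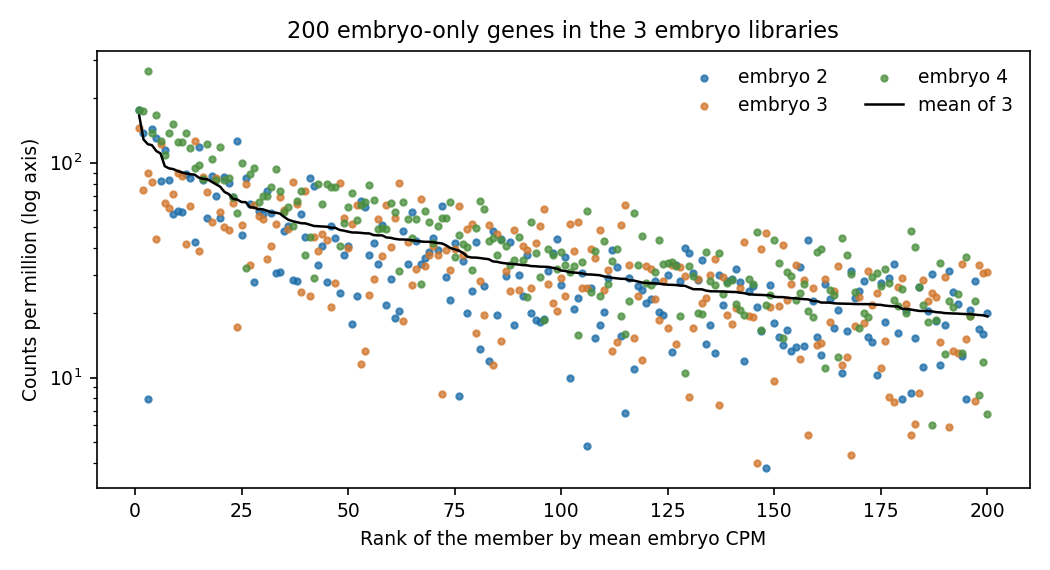
Level of each of the 200 members in the 3 embryo libraries, in CPM on a log axis, against the member's rank by mean level; points are libraries and the line is the mean of 3. The mean runs from 166 to 19.3 CPM, and single libraries lie well above and below it throughout.

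The member with the highest mean, BGIOSGA000476 (chromosome 1, 40231085 to 40232991, minus strand), had 176, 145 and 177 CPM in embryo 2, 3 and 4 and 0 in the 9 other libraries. Its counts were 3190, 2055 and 2790, and the 3 libraries lay close together, at 166 ± 18.2 CPM (SD, n = 3).

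The next, BGIOSGA014158 (chromosome 4, 32977789 to 32982550, minus strand), had 137, 74.3 and 174 CPM in embryo 2, 3 and 4 and 0 elsewhere. Embryo 3 was the low library of this gene, whose mean was 128 ± 50.4 CPM (SD, n = 3).

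The boundary of the set was not marked by a step in level. The last of the 200 (chromosome 11, 3433795 to 3439472) had a mean of 19.29 CPM and the next gene outside (chromosome 4, 22362009 to 22366122) 19.26 CPM. A further 337 genes below the boundary met the same conditions, down to 3.48 CPM. On the side of the zeros, 3 genes stood just outside by a lone count. A gene on chromosome 4 (34383811 to 34384901) had 157 ± 54.2 CPM in embryo and 1 count in pericarp 1. A gene on chromosome 3 (30485943 to 30488497) had 114 ± 46.1 CPM and 1 count in pericarp 3, and a gene on chromosome 4 (1972413 to 1977572) had 109 ± 20.2 CPM and 1 count in aleurone 2 (SD, n = 3).

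How far the zeros reach depends on depth. A floor of 3 counts over the summed 3 libraries of a tissue was set for a count of 0. It was 0.0856 CPM in aleurone, 0.0590 in endosperm and 0.222 in pericarp. Mean embryo levels of members were 225-fold to 1936-fold the aleurone floor and 327-fold to 2806-fold the endosperm floor. They were 87.0-fold to 748-fold the pericarp floor. These ratios are not lower limits, since the rule asked for the zeros and the error of the embryo mean is left out. The floors allow for counting error alone. Without molecular identifiers, PCR copies are not independent molecules, and the floors do not cover transcripts lost from a library. In bulk tissue, fewer expressing cells and less RNA per cell cannot be told apart.

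Zeros outside the embryo were frequent among embryo genes in general. Of the 11559 genes with 50 or more counts in every embryo library, 549 (4.75%) had no count in the 9 others, 783 (6.77%) had a count in just 1 of them and 1153 (9.97%) in all 9. Genes of the members' range of embryo level (7404 with the members) were often at 0 in a single library, 10.8% to 42.2% of them by aleurone library, 27.5% to 50.8% by endosperm library and 58.4% to 66.1% by pericarp library. The part of such gaps in the members' zeros was not tested.

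**Figure D2:**
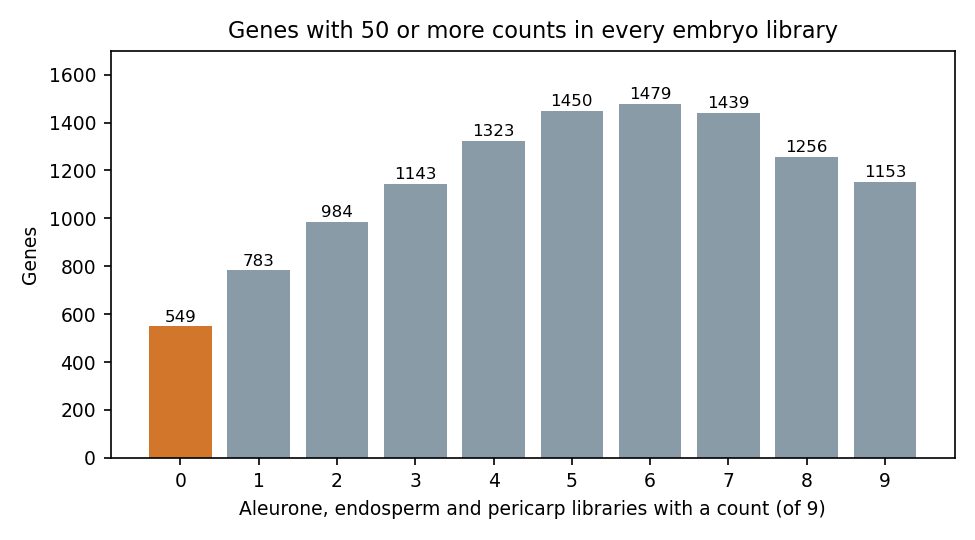
Number of aleurone, endosperm and pericarp libraries (0 to 9) with at least 1 count, for the 11559 genes with 50 or more counts in every embryo library; bars are numbers of genes. The orange bar holds the 549 genes at 0 in all 9, and the highest bar, 1479 genes, stands at 6 libraries.

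The share of genes at 0 in all 9 libraries was lower at each higher range of embryo level. It was 16.7% of 842 genes at 5 to 10 CPM, 8.59% of 2339 at 10 to 20 CPM, 3.71% of 3936 at 20 to 50 CPM and 1.73% of 2314 at 50 to 100 CPM. At 100 to 200 CPM it was 0.573%, or 7 of 1222 genes, of which 6 are members. Of the 849 genes at 200 CPM and over, 0 were without a count elsewhere. A gene at 20 to 50 CPM in embryo had a count in a median of 5 of the 9 other libraries, and one at 200 CPM or more in 9.

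**Figure D3:**
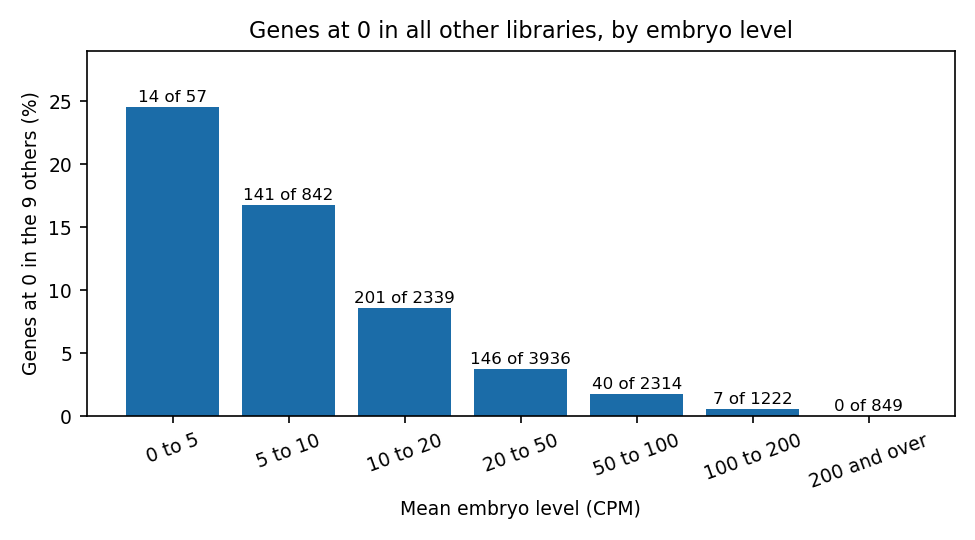
Percent of genes with no count in the 9 other libraries, by mean embryo level in CPM, among genes with 50 or more counts in every embryo library; the number of such genes of all genes is above each bar. The share is 24.6% below 5 CPM, where 57 genes fell, and 0 of 849 at 200 CPM and over.

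Genes that missed the zeros by a single library seldom missed them by a trace. Among the 783 genes counted in 1 other library, 582 (74.3%) had 50 or more counts there, 112 had 1 count and 89 had 2 to 49. Aleurone 1 was that library for 336 of them, with a median of 139 counts, aleurone 3 and endosperm 4 for 97 each, and pericarp 1 for 24. Without aleurone 1 in the conditions, 868 genes without a symbol met them in place of 537, and 133 of the 200 members remained among the 200 highest. Without embryo 3, 885 genes met them and 166 of the members remained. With the 3 pericarp libraries left aside, a choice made after the data were seen, 695 genes met them and 132 members remained.

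The same conditions with another tissue in the place of the embryo gave far smaller sets. Of genes with 50 or more counts in all 3 libraries of a tissue, 549 of 11559 (4.75%) were at 0 elsewhere for embryo, 25 of 5485 (0.456%) for aleurone, 30 of 4341 (0.691%) for endosperm and 1 of 1320 (0.0758%) for pericarp. Because 50 counts are a different level in each library, the counts were repeated with a common minimum of 17.4 CPM. That is the level of 50 counts in the smallest library. The depth of the libraries asked to be at 0 still differed by tissue and was not made equal. The embryo then had 125 of 6832 genes (1.83%), aleurone 5 of 3345 (0.149%), endosperm 7 of 2271 (0.308%) and pericarp 1 of 1280 (0.0781%). These are numbers of genes with no test between tissues, and embryo libraries also held the most genes with a count (14326 to 16862, against 8158 to 13676 in aleurone libraries, 6780 to 10490 in endosperm libraries and 4599 to 5893 in pericarp libraries).

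Within the embryo, members varied more between libraries than other genes of the same level. The median coefficient of variation (SD over mean of CPM, n = 3) was 41.8% over the 200 members and 30.5% over the 7204 other genes in the same range of embryo level. It was 26.5% and 21.3% without embryo 3, 35.8% and 27.6% without embryo 2, and 34.7% and 27.2% without embryo 4, for members and the other genes, and both medians were lowest without embryo 3. It exceeded 50% in 68 members (34.0%) and in 18.9% of the other genes. All 3 libraries lay within 1.5-fold of each other in 41 members (20.5%) and in 29.8% of the other genes. The ranges of both sets overlapped widely (quartiles 25.2% and 55.4% in members, 19.1% and 45.0% in the others), and members sat lower in that range, with a median of 31.4 CPM against 45.9. In the narrower range of 20 to 50 CPM, the medians were 42.4% for the 146 genes at 0 in the 9 other libraries and 34.2% to 39.1% for genes counted in 1 to 9 of them.

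Embryo 4 was the high library of the set. It gave the highest of the 3 values in 92 members (46.0%), embryo 3 in 62 (31.0%) and embryo 2 in 46 (23.0%), where the shares among other genes of the same level were 38.7%, 31.7% and 29.6%. Embryo 2 carried lane 6 in its header and embryo 3 and 4 lane 5, so lane and library cannot be told apart for embryo 2. Members held 0.978% of the counts of embryo 4, 0.730% in embryo 3 of the same lane and 0.717% in embryo 2. The lowest value was in embryo 3 for 87 members, in embryo 2 for 85 and in embryo 4 for 28. The order of the 200 members was loosely shared between libraries, with Spearman correlations of 0.535 for embryo 2 and 4, 0.376 for embryo 3 and 4 and 0.205 for embryo 2 and 3. These run across 200 genes ranked by the mean of the same values, and genes are not independent replicates. The other 7204 genes gave 0.758, 0.630 and 0.633 for the same pairs. Their levels were not matched to those of members within the range (median 45.9 CPM against 31.4). The part of this in the lower correlations of members was not tested.

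At the steady end stood a gene on chromosome 2 (32935599 to 32938998), with 82.7, 85.7 and 84.0 CPM in embryo 2, 3 and 4, a coefficient of variation of 1.80%. A gene on chromosome 8 (26716771 to 26718827) had 69.5, 65.1 and 69.3 CPM (3.66%), and a gene on chromosome 12 (17757665 to 17763162) 20.6, 19.3 and 19.3 CPM (3.98%). In these 3 members the libraries differed by little more than a few CPM.

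At the variable end, a gene on chromosome 7 (26550920 to 26551433) had 8.48, 5.42 and 48.4 CPM in embryo 2, 3 and 4 (115%), high in embryo 4 alone. A gene on chromosome 4 (23489151 to 23492655) had 6.88, 63.6 and 15.9 CPM (106%), high in embryo 3 alone. The member at rank 3 by level, on chromosome 5 (27788437 to 27789170, plus strand), had 7.93, 89.8 and 268 CPM (109%). Its rank rests on embryo 4, which held 4234 of its counts where embryo 2 held 144.

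A further 2 members lay beside this chromosome 5 gene, a grouping noticed after the values were seen. One (27774508 to 27775212, minus strand) had 61.9, 13.3 and 65.6 CPM in embryo 2, 3 and 4, and the other (27796829 to 27797880, plus strand) 8.20, 62.9 and 45.9 CPM. The 3 members span 23.4 kb with 3 other genes between them. All 3 of those had no embryo count, and a lone library, endosperm 3, held 103 counts of one of them. The libraries did not move together across the 3 members: embryo 3 was the low library for the minus-strand gene, and embryo 2 for both plus-strand genes.

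Members were found on every chromosome. No 2 members were next to each other in gene order, 2 pairs had 1 gene between them, and 12 pairs of neighbouring members were within 100 kb. The median gap between neighbouring members on a chromosome was 1039080 bases. Pairs and gaps were not counted for other embryo genes of the same level, so these values have no background. Chromosome 3 held 33 members (16.5%, against 15.0% of the other genes of the same level) and chromosome 2 held 28 (14.0% against 12.2%). Chromosome 7 held 8 (4% against 7.79%), and chromosomes 5, 11 and 12 held 22, 11 and 16 (11.0%, 5.50% and 8%, against 8.31%, 3.64% and 5.50%). Of the 400 places next to a member, 222 (55.5%) were taken by genes with a count in at least 1 of the 9 other libraries, where 48.7% of all genes in the table had one. Genes with 50 or more counts in every embryo library took 38.5% of these places and made up 30.5% of all genes. Places next to other embryo genes of the same level were not counted. All coordinates follow the deposited table, and no source used here names its genome build.

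Strand was near even, with 95 members (47.5%) on the minus strand. A single member overlapped another gene of the table (chromosome 1, 33471631 to 33475284, plus strand, 35.6 ± 20.8 CPM, SD, n = 3). The overlapped minus-strand gene had 43, 0 and 0 counts in embryo 2, 3 and 4 and 133 over the 9 other libraries. No source used here says whether counting used strand, so reads of this pair may have been split between them.

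Gene spans, from the first to the last annotated base with introns included, were long beside those of all genes in the table and a little short beside those of embryo genes of like level. The median span was 3063.5 bases in members (quartiles 2030 and 4668), 3680 in the 7204 other genes of the same level, 3322 in the 11559 genes with 50 or more counts in every embryo library and 1807 in all 37878 genes. Spans under 1000 bases were found in 18 members (9%), in 6.15% of the other genes of the same level and in 30.9% of all genes. Spans over 10000 bases were found in 6 members (3%), in 5.44% of the other genes of the same level and in 1.86% of all genes.

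The shortest member (chromosome 1, 45082969 to 45083238, minus strand) spans 270 bases and had 10.5, 11.4 and 44.4 CPM in embryo 2, 3 and 4. Embryo 4 was the high library here. The longest (chromosome 3, 1806880 to 1825378, minus strand) spans 18499 bases and had 15.4, 36.1 and 38.8 CPM, with embryo 2 low. Both had 0 counts in the 9 other libraries, like every member.

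At 20 to 50 embryo CPM, span was set against the number of other libraries that held a count. The median span was 3002.5 bases for the 146 genes counted in none of the 9, 3612 for the 480 counted in 3 and 2945 for the 131 counted in all 9. Both ends were shorter than the middle, and the quartiles at 0 libraries (1990.5 and 4730 bases) overlapped those at every other number.

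**Figure D4:**
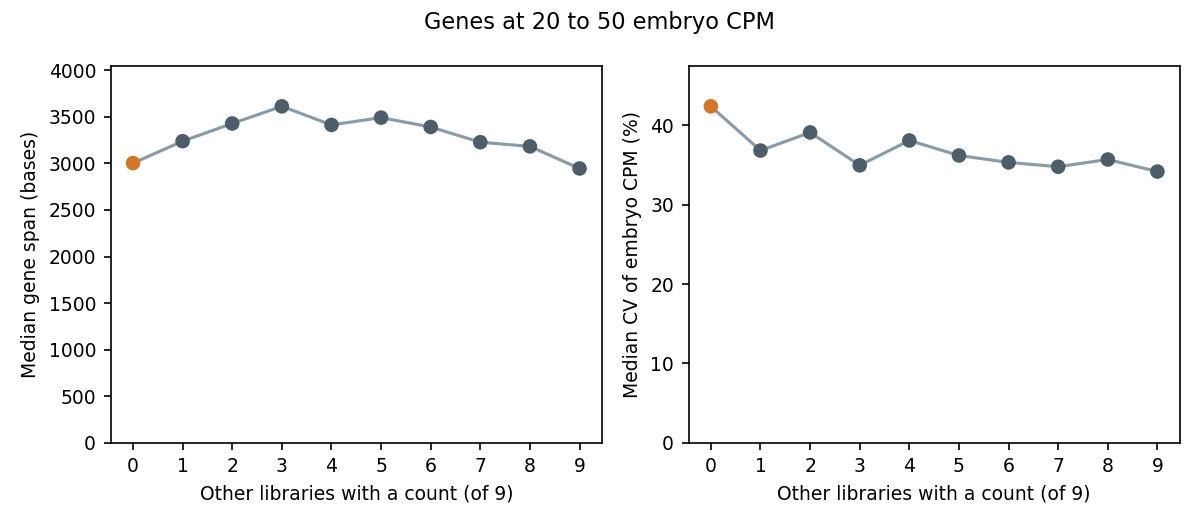
Median gene span in bases (left) and median coefficient of variation of the 3 embryo levels in percent (right) against the number of aleurone, endosperm and pericarp libraries with a count, for genes at 20 to 50 embryo CPM; the orange point holds the 146 genes at 0 in all 9. Span is 3002.5 bases at 0 libraries and 2945 at 9, and the coefficient of variation is 42.4% at 0 and 34.2% at 9.

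Symbol-bearing genes were kept out of the 200 by the rule, and 12 of them had the same pattern of counts. They made up 5.45% of the 220 symbol-bearing genes with 50 or more counts in every embryo library, and the 537 genes without a symbol made up 4.74% of 11339. By their symbols they fall into cell division, transcription factors, cell structure and signalling, and chloroplast genes, and they are the only genes of this pattern that the table names. All 12 had 0 counts in the 9 libraries of aleurone, endosperm and pericarp.

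Among genes of division, CYCB2-1, a B-type cyclin, had 101, 113 and 168 CPM in embryo 2, 3 and 4, at 128 ± 35.5 CPM (SD, n = 3), a level at which it would have ranked 3 among the members. MCM9, of the minichromosome maintenance family that acts on DNA, had 15.7, 15.5 and 13.9 CPM, the steadiest of the 12. Of the list of 70 cell cycle and replication symbols, 16 were in the table, 15 had 50 or more counts in every embryo library, and these 2 were at 0 elsewhere. The other 13 embryo-expressed genes of the list thus had a count in another tissue. Of all 220 symbol-bearing genes with 50 or more counts in every embryo library, 5.45% were at 0 elsewhere. Neither this list nor those below were tested against that share.

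Among transcription factors, SPL12, of the squamosa promoter-binding family, had 106, 54.7 and 70.3 CPM in embryo 2, 3 and 4 and would have ranked 21 among the members. ZHD2, a zinc finger homeodomain gene, had 5.56, 5.07 and 25.1 CPM, high in embryo 4 alone. SHR1, a GRAS gene by its symbol, had 8.37, 12.5 and 13.3 CPM, and the meristem homeobox gene WOX4 had 5.89, 8.31 and 7.54 CPM. Of 9 KNOX and WOX genes in the table, 3 had 50 or more counts in every embryo library and WOX4 was the one at 0 elsewhere. Of 69 symbols of other transcription factor families, 26 had 50 or more, and SPL12 and SHR1 were at 0 elsewhere (ZHD2 was not on that list).

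For cell structure and signalling, PSK2, a precursor of the peptide hormone phytosulfokine, had 14.6, 33.5 and 42.1 CPM in embryo 2, 3 and 4. FH2, a formin that nucleates actin filaments, had 41.4, 16.7 and 26.9 CPM, and VLN4, a villin that bundles them, 5.28, 5.49 and 3.68 CPM. PSK2 and FH2 would have ranked 109 and 117 among the members, and VLN4 lay below them.

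The chloroplast genes were all below the members' range. OBGC1, a GTPase, had 4.95, 12.8 and 7.03 CPM in embryo 2, 3 and 4. EGY2, a membrane protease, had 9.41, 4.51 and 9.25 CPM, and LTD, which acts in the transport of light-harvesting proteins, 6.38, 9.64 and 5.64 CPM. Of 6 genes on a list of oil body, late embryogenesis and storage genes, 4 had 50 or more counts in every embryo library and none of these was at 0 in all 9 others.

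**Figure D5:**
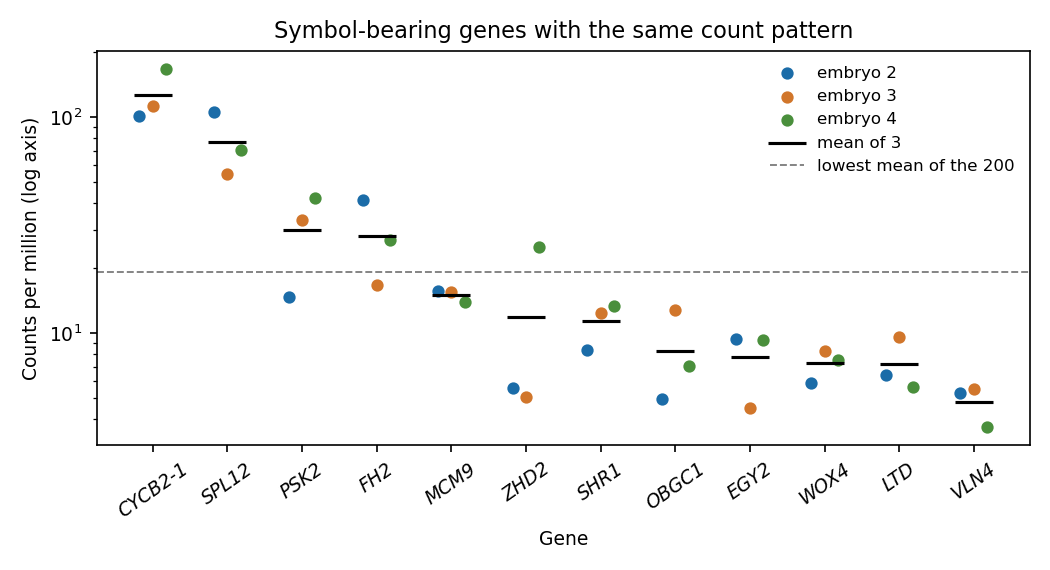
Level of the 12 symbol-bearing genes with 50 or more counts in every embryo library and 0 in the 9 others, in CPM on a log axis; points are the 3 embryo libraries, the black mark is their mean and the dashed line is the lowest mean of the 200 members, 19.3 CPM. CYCB2-1, SPL12, PSK2 and FH2 have means above the line and the other 8 below it.

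In the fit across all genes, members were called against the mean of the other tissues and in no pair of tissues. The test was edgeR's quasi-likelihood test over 16347 genes in 12 libraries, and a gene was called where its p, adjusted by Benjamini-Hochberg, was under 0.05 and its fold 2 or more. All 200 members were tested, and they passed the filter on low counts through the embryo alone. Embryo against aleurone called 0 of the 200 higher, where 0.0184% of all genes were called higher in embryo. Embryo against endosperm called 0, with 0.122% of all genes, and embryo against pericarp called 0, with 2.18%. All 200 had an unadjusted p below 0.05 in each pair, as did 10.1%, 22.1% and 37.4% of all genes, higher in embryo than in aleurone, endosperm and pericarp.

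The adjusted p of members lay between 0.172 and 0.187 against aleurone, between 0.119 and 0.125 against endosperm and between 0.0571 and 0.0845 against pericarp (edgeR). Against the mean of the other 3 tissues all 200 were called, with adjusted p from 0.0141 to 0.0166, where 16.6% of all genes were called higher in embryo. These contrasts were used to choose the members, and the counts are given as a description. BGIOSGA000476 had a fitted log2 fold change of 13.55 in every contrast, with an SE of 2.68 against aleurone, 2.71 against endosperm, 2.72 against pericarp and 1.61 against the mean. The fitted value of a gene at 0 depends on the prior count of the fit and is no bound.

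Other tools called most members in the pairs. DESeq2 called 128 of the 200 higher in embryo than in aleurone, with 4.5% of all genes, 190 than in endosperm, with 14%, and 200 than in pericarp, with 29.1%. Limma voom called 200 in each pair, with 11.5%, 24.2% and 43.1% of all genes against aleurone, endosperm and pericarp. An edgeR fit of the 6 libraries of a pair called 47, 200 and 200 in the same order, with 1.45%, 24.5% and 41.3% of all genes. Against the mean of the other tissues, DESeq2 and limma voom each called 200 members, with 23.9% of all genes by DESeq2 and 37.3% by limma voom. The common dispersion of the fit over 12 libraries was 3.49. Against the mean of the other tissues, the 200 calls became 1 without aleurone 3, 22 without embryo 4, 36 without endosperm 2 and 3 without endosperm 4, and from 197 to 200 without any of the other 8 libraries.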

How the data were processed

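Total RNA was extracted with a PicoPure kit, and NEBNext Ultra libraries were sequenced on an Illumina instrument, per the labels' protocols. The deposited table gave total read counts per gene and library, as whole numbers, per the file headers. Another 36 per-sample columns were not used: the headers tie a column to a tissue but not to 1 sample, and 1 measure per library was kept. No source used here names the aligner, the build or the counting rules. Columns were assigned by the letters Em, Al and Pc in the headers, and Se was taken as endosperm, the one tissue left. Libraries carry the header's number.

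CPM was computed as the count over the library total of 37878 genes. Counts were tested with edgeR 4.0.16 (R 4.3.3) after filterByExpr (minimum count 10) and TMM, with tissue as the only term, and with DESeq2 1.42.0 and limma 3.58.1 as alternatives. The edgeR script was tested on simulated counts of smaller dispersion than these data, for embryo against aleurone alone. That test does not show how it calls genes at the dispersion found here. An SE is the size of the log2 fold change divided by the root of F.

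The members, lists, markers and tests were chosen with earlier results of these data known. The named genes are the 2 highest members by identifier, the ends of the range of level and of variation by position, members next to each other (0 pairs), the genes just outside, and symbol-bearing genes of the same pattern. The ends of span, the overlapping member and the chromosome 5 group were added after the values were seen. Neither promoter motifs nor a ranking by length-corrected level, both planned, were run. Among planned markers, OSH1, GLUA1 and GLUB1 were not matched by symbol.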

Additional observations from a re-analysis of the deposited data

How the results depend on the processing

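Genes meeting the conditions numbered 337 with 100 counts in each embryo library and 123 with the common CPM minimum, against 537, and 561 to 885 without single libraries. Of the 200 members, 127 and 121 remained when at most 1 or 3 counts were allowed in each other library, 119 with at most 1% of the embryo CPM there, 123 with the common CPM minimum, 132 without the pericarp libraries (chosen after the data were seen), and 133 to 190 without single libraries. Leaving out aleurone 2 and endosperm 3 together, also chosen after the data were seen, gave 607 genes and kept 180 members. With the common CPM minimum, aleurone had 5 of 3345 genes (0.149%) and endosperm 7 of 2271 (0.308%). The members' share of embryo counts was 0.724% to 0.854% and their median coefficient of variation 26.5% to 35.8% without single embryo libraries.

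The median span of members was 1.70 times that of all genes and 0.922 times that of genes with 50 or more counts in every embryo library. Ranking by TPM was not run.

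Genes called higher in embryo than in aleurone, 3 in the fit reported, numbered 0 with lane as a covariate, 220 in the fit of the pair, 1872 with limma voom and 735 with DESeq2. Against endosperm the 20 became 13 with DESeq2 size factors, 61 with library totals, 8 with lane, 3543 in the pair, 3959 with limma voom and 2295 with DESeq2. Against pericarp the 357 became 194 with library totals, 122 with lane, 5525 in the pair, 7038 with limma voom and 4756 with DESeq2. Against the mean the 2720 became 1710 with lane and 6097 with limma voom. Without single libraries the ranges were 0 to 11, 2 to 100, 73 to 824 and 27 to 2696, and members called were 0 to 0, 0 to 1, 0 to 2 and 1 to 200. Members called in pairs were 47, 200 and 200 in the fits of the pair, 128, 190 and 200 with DESeq2 and 200 with limma voom. The causes were not tested.

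Correlations of deviations from the tissue means were -0.04 to 0.03 over 13 same-numbered pairs and -0.03 to 0.04 over 41 other pairs. They cannot show whether libraries of the same header number came from shared seeds. With the replicate block, genes called higher were 16, 156, 210 and 247 against aleurone, endosperm, pericarp and the mean, and members called against the mean 22. Depth limits the zeros most in pericarp, whose floor was 0.222 CPM.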
